A study of Arabidopsis thaliana with 8 samples.

Results

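The nuclear genes for the light-harvesting antenna and the photosystem subunits of Arabidopsis thaliana were examined in seedlings with and without the coffee gene CAHB12. The set held 44 genes, chosen by locus with earlier results of these data known, of the 20701 loci in the count table. It comprised 6 LHCA genes (antenna of photosystem I), 15 LHCB genes (antenna of photosystem II), 12 PSA genes (subunits of photosystem I) and 11 PSB genes (subunits of photosystem II). All 44 were in the count table and passed the filter on low counts.

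In the thylakoid membrane the antenna proteins bind chlorophyll and pass absorbed light energy to the reaction centres. LHCB1, LHCB2 and LHCB3 proteins build the trimers of light-harvesting complex II (LHCII), LHCB4, LHCB5 and LHCB6 are monomeric linkers between the trimers and photosystem II, and LHCA proteins form a belt around photosystem I. The core of each photosystem is encoded in the plastid, while nuclear PSA and PSB genes supply peripheral subunits such as the ferredoxin docking site and the proteins that shield the oxygen-evolving cluster. In leaves the nuclear antenna genes are known for high, light-regulated and clock-regulated mRNA levels.

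The wild type was cultivar Columbia, and the transgenic group was Columbia carrying 35S:CAHB12, a homeodomain-leucine zipper class I gene of coffee behind a constitutive viral promoter. Both groups were whole seedlings, 10 days after germination, raised at 22 °C with 18 h of light and 6 h of darkness, and no other treatment is named. Each group had 2 mRNA libraries, each from its own pool of 50 seedlings, called biological replicates in the labels. The design text mentions more than 1 transgenic line, and which line gave which replicate is not stated, so line and replicate cannot be told apart. The comparison asked which of these mRNAs differ when the coffee gene is expressed.

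Total counts were 15682546 and 19436632 in wild-type replicates 1 and 2 and 15424261 and 16615556 in transgenic replicates 1 and 2. Over the 20298 genes tested by edgeR's quasi-likelihood test, 17 passed at a Benjamini-Hochberg adjusted p under 0.05 (0.0838%). All 9 root markers were in the table, with summed levels of 1312 and 1255 CPM (counts scaled to a common library total) in wild type and 1623 and 1503 CPM in transgenic seedlings. Nearly all of this sum was PYK10, with 1214 and 1143 CPM in wild type and 1524 and 1384 CPM in transgenic seedlings. Of the 9 root markers 5 had a lower and 4 a higher estimate in transgenic seedlings. Both transgenic libraries lay below both wild-type libraries in 4 of them, against 19.3% of all genes tested. These were NRT2.1, COBL9, EXPA7 and EXPA18, with log2 fold changes of -0.65 to -0.48. In 1 marker, PYK10, both lay above, against 20.2% of all genes tested. COBL9, EXPA7 and EXPA18 had only 17 to 44 counts per library. Of 8 seed storage and oil body markers 4 were in the table, with summed levels of 19.7 and 45.8 CPM in wild type and 2.21 and 119 CPM in transgenic seedlings. Of 5 floral organ markers only SEP3 was in the table, at 0.517 to 3.001 CPM. The part of tissue makeup in the differences below was not tested, and in whole seedlings fewer green cells and less mRNA per cell cannot be told apart. CAHB12 is not an Arabidopsis locus and its mRNA was not analysed here, so the transgene itself could not be checked.

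The antenna and photosystem genes were among the most abundant mRNAs of the seedlings. Levels of different genes were compared as RPKM, which is the CPM divided by the deposited length of the locus in kilobases. LHCB1.3 (AT1G29930), an LHCII trimer gene, had 17497 and 16627 RPKM in the wild-type replicates and 15524 and 16019 RPKM in the transgenic replicates. It was the most abundant of all 20701 loci in wild type. LHCB1.5 (AT2G34420) ranked 4 and LHCB1.2 (AT1G29910) ranked 7 of all loci, with wild-type means of 9072 ± 969.8 and 5058 ± 481 RPKM (SD, n = 2). The highest PSB gene was PSBX (AT2G06520), a small membrane subunit, at 3693 ± 303 RPKM in wild type (SD, n = 2). PSAG (AT1G55670), a membrane subunit on the antenna side of photosystem I, was the highest PSA gene at 3485 ± 9.97 RPKM (SD, n = 2). LHCA3 (AT1G61520) was the highest LHCA gene at 2996 ± 199 RPKM (SD, n = 2).

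The range of levels differed between the 4 subgroups. Among LHCB genes the highest wild-type level was 3320 times the lowest, because LHCB4.3 (AT2G40100) and LHCB7 (AT1G76570) had only 6.01 ± 0.208 and 5.14 ± 1.097 RPKM (SD, n = 2). Among LHCA genes the ratio was 55.7. LHCA5 (AT1G45474) and LHCA6 (AT1G19150), which link photosystem I to the NADH dehydrogenase-like complex, had 53.8 ± 1.31 and 113 ± 3.18 RPKM in wild type (SD, n = 2). PSA and PSB levels lay closer together, with ratios of 12.7 and 7.8. In the order of wild-type levels, the 4-library ranges of neighbours overlapped in 9 of 14 neighbouring pairs in LHCB, 2 of 5 in LHCA, 3 of 11 in PSA and 3 of 10 in PSB. LHCB2.1, LHCB2.2 and LHCB4.2 were among the LHCB genes that could not be ranked against a neighbour beyond this spread.

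**Figure D1:**
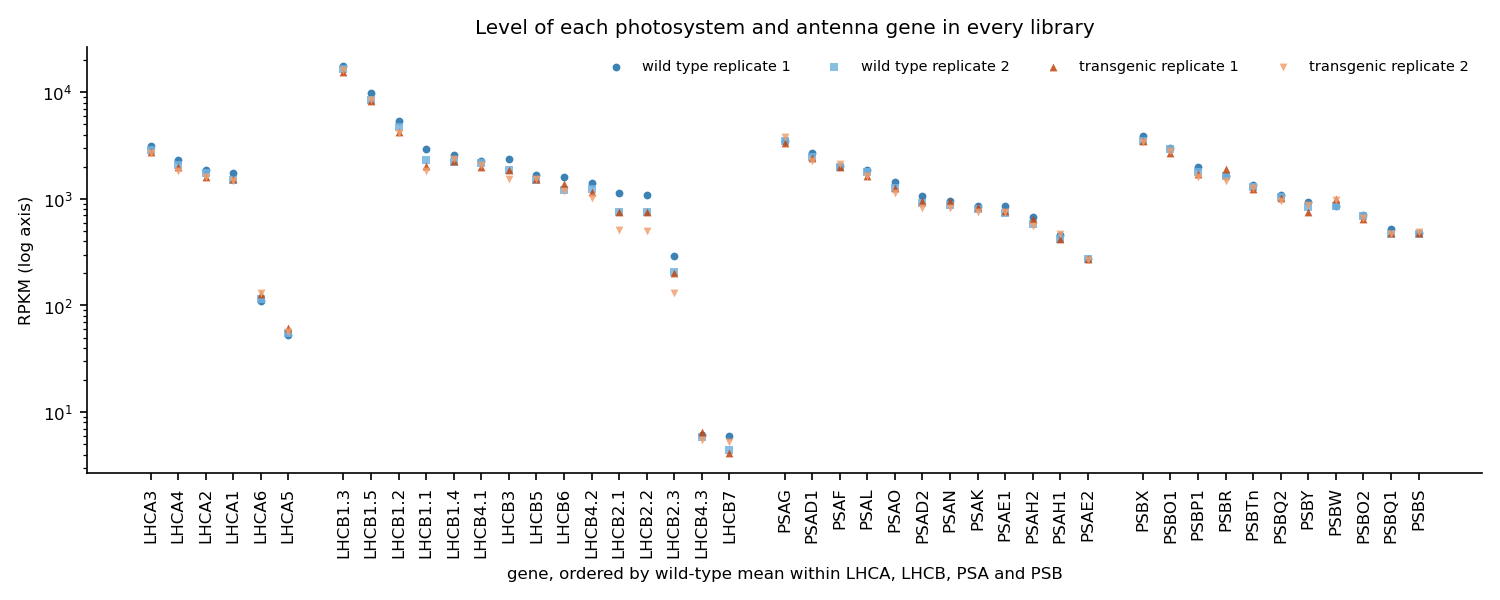
RPKM (log axis) of each of the 44 genes in each of the 4 libraries, ordered by wild-type mean within the LHCA, LHCB, PSA and PSB subgroups, with 1 symbol per library. LHCB1.3 stands highest at 15524 to 17497 RPKM, LHCB4.3 and LHCB7 lie lowest near 6.01 and 5.14 RPKM, and the symbols of most genes lie close together.

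None of the 44 genes passed the test between transgenic and wild-type seedlings by edgeR, by DESeq2 (where 0.367% of all genes passed) or by limma on log2(RPKM + 0.5) (0.0493%). The estimates leaned to lower levels in the transgenic group: the log2 fold change (transgenic over wild type) was below 0 for 36 genes and above 0 for 8, against 48.6% below and 51.4% above 0 over all genes tested. The median log2 fold change of the 44 genes was -0.11, and that of all genes tested was 0.0065. In 20 of the 44 genes both transgenic libraries lay below both wild-type libraries, against 19.3% of all genes tested. In 4 genes (LHCA5, LHCA6, PSBS and PSBW) both lay above, against 20.2% of all genes, and in 20 the groups overlapped.

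An unadjusted p under 0.05 by edgeR was reached by 6 of the 44 genes, against 7.92% of all genes tested. The 5 lower ones were LHCB1.1, LHCB2.1, LHCB2.2, LHCB2.3 and LHCB4.2, all of the photosystem II antenna, where 4.22% of all genes were lower at that p. The 1 higher gene was LHCA6, where 3.7% of all genes were higher. DESeq2 gave 4 and limma on log2(RPKM + 0.5) gave 2 of the 44 genes an unadjusted p under 0.05, against 3.53% and 7.67% of all genes by these tools. The 3 LHCB2 genes were not among these by either tool. The 95% interval of the log2 fold change lay within 1.5-fold in either direction for 38 of the 44 genes. The same held for 13073 of the 20298 genes tested. The 6 others of the 44 were LHCB1.1, LHCB2.1, LHCB2.2, LHCB2.3, LHCB3 and LHCB7.

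**Figure D2:**
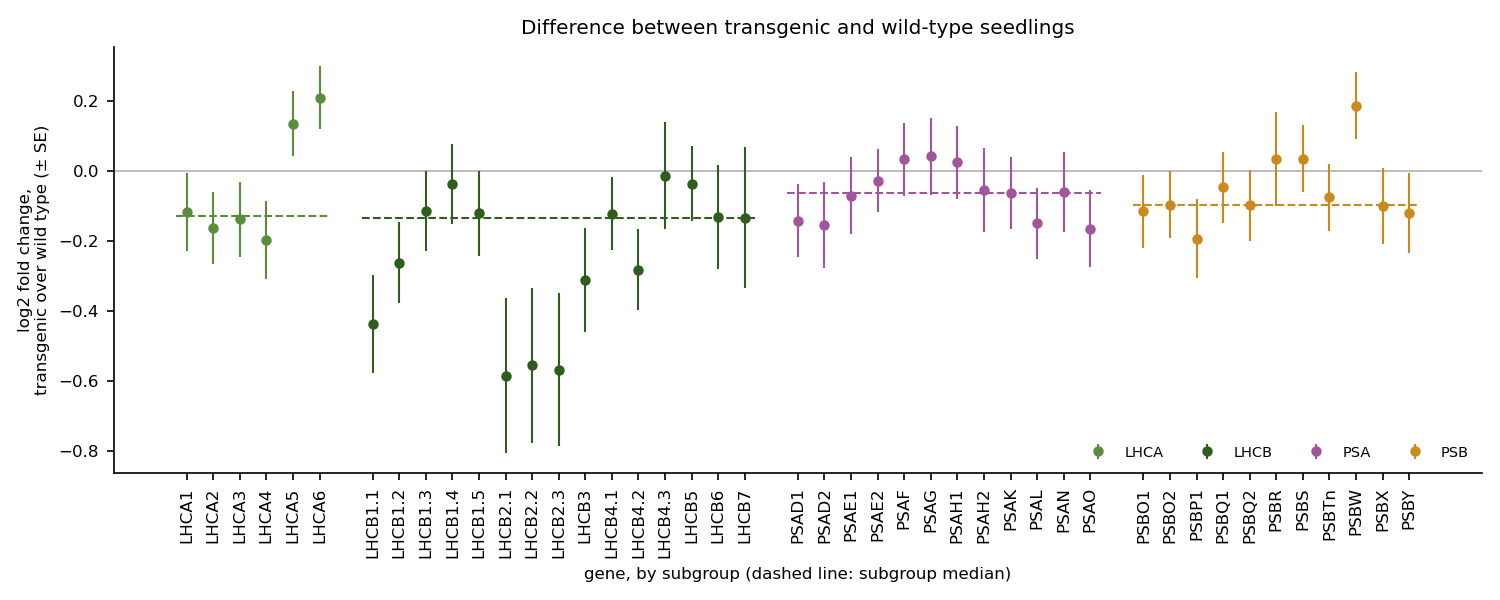
Log2 fold change (transgenic over wild type, edgeR) of each gene with its standard error as a bar, coloured by subgroup, with the subgroup median as a dashed line. The 15 LHCB estimates all lie below 0, with the 3 LHCB2 genes lowest at -0.58 to -0.56, and the highest estimate is that of LHCA6 at 0.21.

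All 15 LHCB genes had an estimate below 0, and their median log2 fold change was -0.13. In 7 of them both transgenic libraries lay below both wild-type libraries, against 19.3% of all genes tested. LHCB2 proteins are the part of the LHCII trimer whose phosphorylation by the kinase STN7 moves antenna between the photosystems. LHCB2.1 (AT2G05100) had 1351 and 899 CPM in wild-type replicates 1 and 2 and 891 and 610.1 CPM in transgenic replicates 1 and 2. Both transgenic libraries were lower, but wild-type replicate 2 and transgenic replicate 1 were nearly equal. The log2 fold change of LHCB2.1 was -0.58 (SE 0.222, 95% interval -1.09 to -0.073), with an edgeR adjusted p of 0.597.

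LHCB2.2 (AT2G05070) had 1261 and 869 CPM in wild type and 874 and 576 CPM in transgenic seedlings, so that the groups overlapped by a few CPM. Its log2 fold change was -0.56 (SE 0.222; edgeR adjusted p = 0.605). LHCB2.3 (AT3G27690) was the least abundant of the 3, with 307 and 219.6 CPM in wild type and 216 and 139 CPM in transgenic seedlings. Its log2 fold change was -0.57 (SE 0.218; edgeR adjusted p = 0.605). In all 3 LHCB2 genes wild-type replicate 1 was highest, transgenic replicate 2 lowest, and the other two libraries lay together in between.

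The spread between LHCB2 replicates was as large as the difference between groups. The median log2 ratio of replicate 2 over replicate 1 in the 3 genes was -0.54 in wild type and -0.60 in transgenic seedlings, beside a median log2 fold change between groups of -0.57. Without wild-type replicate 2, where 2% of all genes passed, the 3 LHCB2 genes passed edgeR's test with log2 fold changes of -0.85, -0.81 and -0.80 in the order of their names. Their edgeR adjusted p-values were then 0.0224, 0.0399 and 0.0363, while over the 4 fits with 1 library left out they ranged up to 0.999. With any other library left out 0 of the 44 genes passed, where 0.35% (wild-type replicate 1), 0.116% (transgenic replicate 1) and 0.0779% (transgenic replicate 2) of all genes did. In those fits the log2 fold change of LHCB2.1 was lowest, at -0.89, when transgenic replicate 1 was left out and highest, at -0.26, when wild-type replicate 1 was.

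The proportions of the 3 LHCB2 genes varied little between libraries. LHCB2.1 supplied 46.3%, 45.2%, 45.0% and 46.1% of LHCB2 counts in wild-type replicates 1 and 2 and transgenic replicates 1 and 2 (95% Wilson intervals 45.8 to 46.8%, 44.7 to 45.7%, 44.4 to 45.5% and 45.4 to 46.7%). The intervals of wild-type replicate 1 and transgenic replicate 1 did not overlap. LHCB2.2 supplied 43.2% to 44.1% and LHCB2.3 10.5% to 11.0% over the 4 libraries. LHCB2.1 and LHCB2.2 are neighbours on chromosome 2, whereas LHCB2.3 is on chromosome 3. The sources used here do not say how reads that match several paralogs were assigned, so the split within a family is uncertain and family totals were also tested. The LHCB2 total was 2919 and 1987 CPM in wild type and 1981 and 1325 CPM in transgenic seedlings. Its log2 fold change was -0.57 (SE 0.223; edgeR adjusted p = 0.603), and -0.83 without wild-type replicate 2 (edgeR adjusted p = 0.0378, within a range up to 0.999 over the fits with 1 library left out).

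LHCB1 is the most abundant LHCII protein and has 5 genes in 2 tandem groups, LHCB1.1, LHCB1.2 and LHCB1.3 on chromosome 1 and LHCB1.4 and LHCB1.5 on chromosome 2. LHCB1.1 (AT1G29920) had 3447 and 2709.6 CPM in wild-type replicates 1 and 2 and 2407 and 2142 CPM in transgenic replicates 1 and 2. The groups did not overlap, and wild-type replicate 1 stood above the other 3 libraries. Its log2 fold change was -0.44 (SE 0.139, 95% interval -0.76 to -0.12), with an unadjusted p of 0.0137 and an edgeR adjusted p of 0.515, the smallest of the 44 genes.

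LHCB1.2 had 5501 and 4807 CPM in wild type and 4364 and 4237 CPM in transgenic seedlings, and the groups did not overlap (log2 fold change -0.26, SE 0.115; edgeR adjusted p = 0.632). LHCB1.3 had 18249.9 and 17342 CPM in wild type and 16191 and 16708 CPM in transgenic seedlings. The groups of LHCB1.3 did not overlap either, but the log2 fold change was only -0.11 (SE 0.114; edgeR adjusted p = 0.820). LHCB1.4 (AT2G34430) and LHCB1.5, the pair on chromosome 2, had log2 fold changes of -0.036 and -0.12 with overlapping groups. The LHCB1 total had a log2 fold change of -0.15 (SE 0.125; edgeR adjusted p = 0.777).

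Within LHCB1 counts, LHCB1.1 supplied 8.62% and 7.56% in wild-type replicates 1 and 2 and 7.10% and 6.25% in transgenic replicates 1 and 2 (95% Wilson intervals 8.55 to 8.69%, 7.50 to 7.62%, 7.03 to 7.17% and 6.18 to 6.31%). Both transgenic shares lay below both wild-type shares. LHCB1.3 supplied 45.7% to 48.7% over the 4 libraries. Wilson intervals cover counting error only, not the spread between pools.

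LHCB3 (AT5G54270), the third trimer protein, had 3043 and 2392 CPM in wild type and 2396 and 1988 CPM in transgenic seedlings. As in LHCB2, wild-type replicate 2 and transgenic replicate 1 were nearly equal between a higher and a lower library. Its log2 fold change was -0.31 (SE 0.148; edgeR adjusted p = 0.649). Of all LHCII trimer counts, LHCB2 supplied 6.36% and 4.94% in wild-type replicates 1 and 2 and 5.18% and 3.52% in transgenic replicates 1 and 2 (95% Wilson intervals 6.30 to 6.41%, 4.89 to 4.99%, 5.12 to 5.23% and 3.48 to 3.57%). The groups overlapped in this share, since transgenic replicate 1 lay above wild-type replicate 2. LHCB1 supplied 87.0% and 89.1% in the wild-type pools, against 88.6% and 91.2% in the transgenic pools, the reverse order of libraries.

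**Figure D3:**
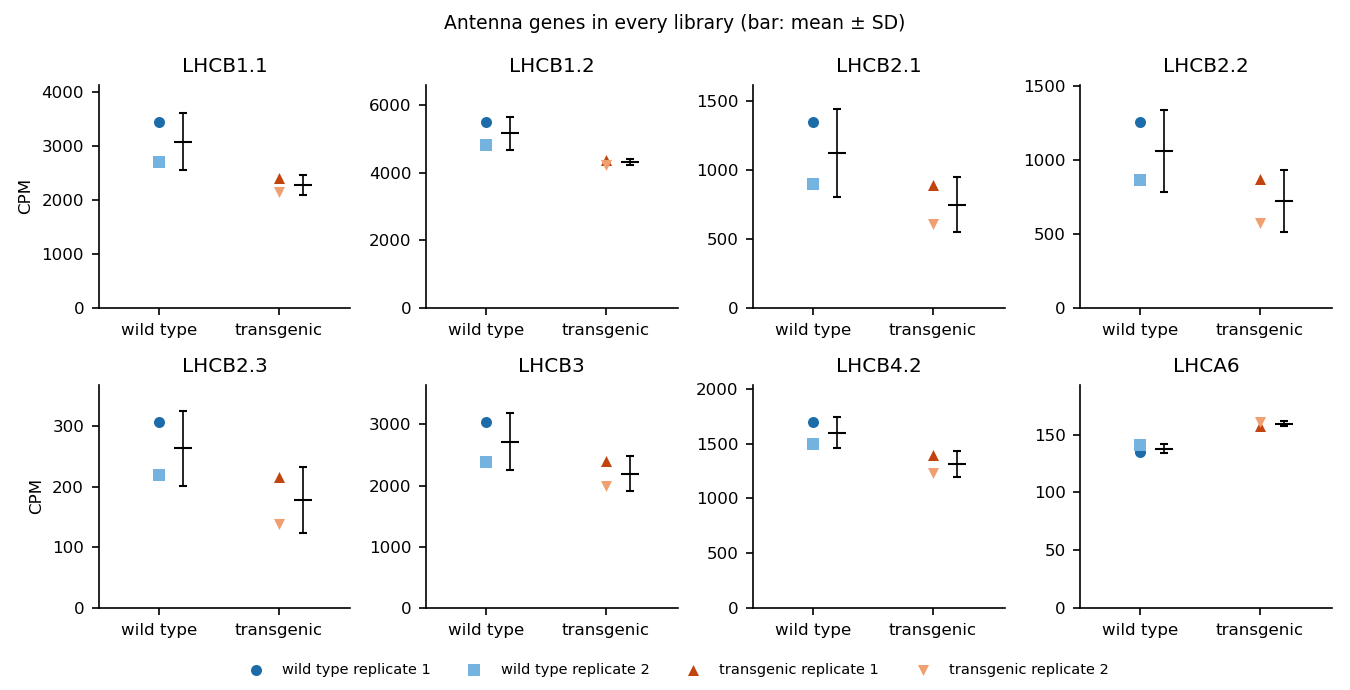
CPM of 8 antenna genes in each library (symbols), with the group mean and SD (n = 2) as a bar beside them, each panel starting at 0. In the LHCB panels wild-type replicate 1 is highest and transgenic replicate 2 lowest, the groups meet or overlap in LHCB2.1, LHCB2.2, LHCB2.3 and LHCB3, and the groups are apart in LHCB1.1, LHCB1.2, LHCB4.2 and, with transgenic seedlings higher, LHCA6.

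Estimates of the linker antenna genes ran from -0.28 to -0.013 on the log2 fold change scale. LHCB4.2 (AT3G08940), which encodes a form of the CP29 linker, had 1701 and 1501 CPM in wild type and 1399.6 and 1234 CPM in transgenic seedlings, without overlap. Its log2 fold change was -0.28 (SE 0.116, 95% interval -0.55 to -0.014; edgeR adjusted p = 0.609). Its paralog LHCB4.1 (AT5G01530), with 3411 and 3270.4 CPM in wild type and 2984 and 3154 CPM in the transgenic pools, was at -0.12 on the same scale. LHCB4.2 supplied 33.2% and 31.4% of LHCB4 counts in the wild-type pools, against 31.9% and 28.1% in the transgenic pools (95% Wilson intervals 32.9 to 33.5%, 31.1 to 31.7%, 31.5 to 32.2% and 27.7 to 28.4%), so the groups overlapped in this share. LHCB4.3 had 8.65 to 10.4 CPM over the 4 libraries and a log2 fold change of -0.013. LHCB5 (AT4G10340) and LHCB6 (AT1G15820), the CP26 and CP24 linkers, had -0.037 and -0.13 with overlapping groups. LHCB7, at 6.95 to 10.0 CPM, had -0.13 with an SE of 0.201, on only 110 to 157 counts per library.

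The main LHCA genes and the pair of rare ones lay on opposite sides of 0. LHCA1 (AT3G54890), LHCA2 (AT3G61470), LHCA3 and LHCA4 (AT3G47470) form the antenna belt, and their log2 fold changes were -0.12, -0.16, -0.14 and -0.20, with edgeR adjusted p-values from 0.703 to 0.809. LHCA3 had 4307 and 3919.7 CPM in wild type and 3782 and 3695 CPM in transgenic seedlings. The transgenic libraries were lower without overlap in LHCA2, LHCA3 and LHCA4, as in 19.3% of all genes tested. In LHCA5 and LHCA6 they were higher without overlap, as in 20.2% of all genes tested. LHCA6 had 135 and 141 CPM in wild type and 158 and 161 CPM in transgenic seedlings. The libraries of a group lay close together, and the log2 fold change of LHCA6 was 0.21 (SE 0.0897, 95% interval 0.0029 to 0.42; edgeR adjusted p = 0.627). LHCA5, with 79.6 and 82.3 CPM in wild type and 92.5 and 85.3 CPM in transgenic seedlings, had 0.13 (SE 0.0927; edgeR adjusted p = 0.749). The median of the 6 LHCA genes was -0.13.

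Photosystem I subunit genes had estimates close to 0, with a median of -0.062 on the log2 fold change scale and a range of -0.16 to 0.042 among the 12. The interval of each of the 12 lay within 1.5-fold in either direction, as did that of 13073 of the 20298 genes tested. PSAL (AT4G12800) and PSAO (AT1G08380), subunits where LHCII docks in state transitions, had log2 fold changes of -0.15 and -0.16 with no overlap of groups (edgeR adjusted p = 0.746 and 0.744). PSAD1 (AT4G02770) and PSAD2 (AT1G03130), which encode a stromal subunit that binds ferredoxin, had -0.14 and -0.15. PSAE1 (AT4G28750) and PSAE2 (AT2G20260), another stromal subunit, had -0.070 and -0.028. PSAE2 was nearly constant, with 284 and 283 CPM in wild type and 279 and 277 CPM in transgenic seedlings. As in PSAL and PSAO, both transgenic libraries lay below both wild-type libraries in PSAD1 and PSAE2. This held in 4 of the 12 genes, against 19.3% of all genes tested, and in 8 the groups overlapped.

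PSAF (AT1G31330) and PSAN (AT5G64040), on the plastocyanin side, had log2 fold changes of 0.033 and -0.061. PSAG had 2709.4 and 2720.4 CPM in wild type and 2625 and 2967 CPM in transgenic seedlings, overlapping, with 0.042 (SE 0.110; edgeR adjusted p = 0.946). PSAK (AT1G30380), its relative on the other antenna side, had -0.063. PSAH1 (AT3G16140) and PSAH2 (AT1G52230), also of the LHCII docking site, had 0.025 and -0.053. The totals of the PSAD, PSAE and PSAH families were at -0.14, -0.060 and -0.017 on that scale (edgeR adjusted p from 0.767 to 0.980).

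For the 11 PSB genes the log2 fold changes had a median of -0.096. Each interval lay within 1.5-fold in either direction, as for 13073 of the 20298 genes tested. PSBO1 (AT5G66570), PSBO2 (AT3G50820), PSBP1 (AT1G06680), PSBQ1 (AT4G21280) and PSBQ2 (AT4G05180) encode the extrinsic proteins of the oxygen-evolving complex. Their log2 fold changes were -0.11, -0.096, -0.19, -0.047 and -0.098, and 4 of these 5 (all but PSBQ1) had both transgenic libraries below both wild-type libraries, as had 19.3% of all genes tested. PSBP1 had 3198 and 2841 CPM in wild type and 2748 and 2534 CPM in transgenic seedlings (SE of the log2 fold change 0.113; edgeR adjusted p = 0.707). PSBO1 held a steady 81.4% to 81.7% of PSBO counts in all 4 libraries, and the PSBO and PSBQ totals had -0.11 and -0.082 (edgeR adjusted p = 0.808 and 0.861).

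PSBW (AT2G30570), a small subunit that stabilises photosystem II supercomplexes, had 1001 and 1007 CPM in wild type and 1156 and 1132 CPM in transgenic seedlings. The groups did not overlap, and its log2 fold change was 0.19 (SE 0.0959; edgeR adjusted p = 0.676). PSBS (AT1G44575), the sensor of energy dissipation, had 812 and 785 CPM in wild type and 815 and 821 CPM in transgenic seedlings (log2 fold change 0.035). PSBX had 2458 and 2188 CPM in wild type and 2175 and 2161 CPM in transgenic seedlings, with -0.10 (SE 0.108; edgeR adjusted p = 0.831). PSBY (AT1G67740) and PSBTn (AT3G21055), other small subunits, had -0.12 and -0.074. PSBR (AT1G79040), which helps to anchor the extrinsic proteins, varied most between its transgenic libraries, at 1882 and 1459 CPM beside 1626 and 1636 CPM in wild type (log2 fold change 0.034).

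The order of the 4 libraries recurred across these genes. Wild-type replicate 1 was highest and transgenic replicate 2 lowest in 22 of the 44 genes (50%), against 14.2% of all genes tested. The opposite order, with wild-type replicate 1 lowest and transgenic replicate 2 highest, held in 1 gene, LHCA6. The first order held in 8 of 15 LHCB, 8 of 12 PSA, 3 of 6 LHCA and 3 of 11 PSB genes. Replicate 1 was above replicate 2 in both genotypes in 25 of the 44 genes, and in 5972 of the 20298 genes tested. What separated the libraries was not tested.

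**Figure D4:**
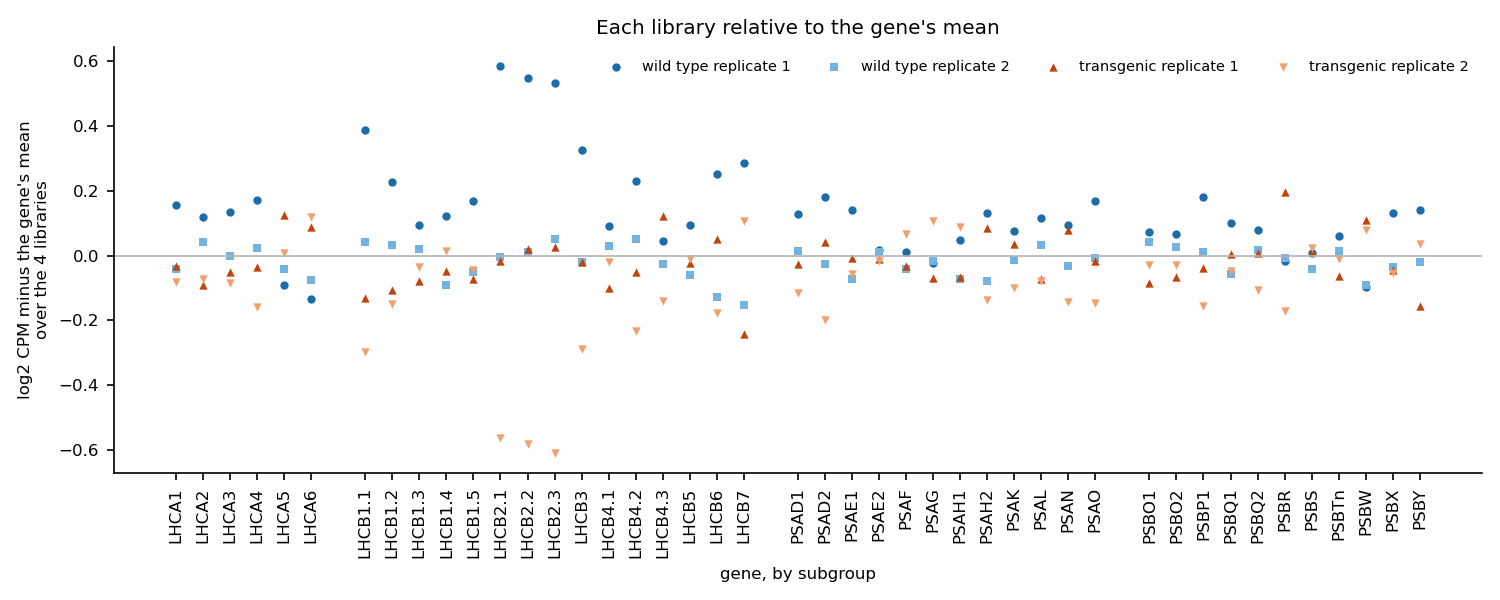
Log2 CPM of each gene in each library minus that gene's mean over the 4 libraries, with 1 symbol per library and genes grouped as LHCA, LHCB, PSA and PSB. Wild-type replicate 1 is highest and transgenic replicate 2 lowest in 22 of the 44 genes, and the spread is widest in the 3 LHCB2 genes, where wild-type replicate 2 and transgenic replicate 1 lie together near 0.

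The 44 genes took 10.6% and 9.51% of all counts in wild-type replicates 1 and 2 and 9.51% and 8.90% in transgenic replicates 1 and 2 (95% Wilson intervals 10.55 to 10.58%, 9.49 to 9.52%, 9.50 to 9.52% and 8.89 to 8.91%). LHCB genes made up most of this, with 5.60% and 4.89% of all counts in the wild-type pools, against 4.84% and 4.53% in the transgenic pools (95% Wilson intervals 5.59 to 5.61%, 4.88 to 4.90%, 4.82 to 4.85% and 4.52 to 4.54%). Wild-type replicate 2 and transgenic replicate 1 held nearly the same share, between a higher and a lower library. LHCB counts were 2.94 and 2.73 times PSB counts in the wild-type pools, against 2.65 and 2.67 times in the transgenic pools. LHCA counts were 0.855 and 0.832 times PSA counts in the wild-type pools, against 0.804 and 0.785 times in the transgenic pools. In both ratios the transgenic libraries lay below the wild-type libraries. LHCB counts were 3.96 and 3.82 times LHCA counts in the wild-type pools, against 3.81 and 3.86 times in the transgenic pools, and the groups overlapped. The ratios are given as a description and were not tested. An exact permutation test of such a single value, two-sided, cannot go below p = 0.333 with 2 libraries against 2.

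Related genes of photosynthesis were read from 7 lists, and none of their genes passed edgeR's test. The 20 plastid genes for photosystem subunits all had estimates above 0, with a median log2 fold change of 0.33. In 13 of the 20 both transgenic libraries lay above both wild-type libraries (20.2% of all genes tested). An unadjusted p under 0.05 was reached by 7, all higher (3.7% of all genes tested), and 12 had wild-type replicate 1 lowest and transgenic replicate 2 highest (14.2% of all genes tested). This is the reverse of the order that led among the nuclear genes. Genes of a list are not replicates of each other, and what set the plastid genes apart was not tested. psbM, a small photosystem II subunit, had 17.3 and 24.4 CPM in wild type and 47.7 and 38.5 CPM in transgenic seedlings, with a log2 fold change of 1.04 (SE 0.174; edgeR adjusted p = 0.134). It was the 1 list gene that passed by DESeq2 (adjusted p = 0.000349, over all alternatives 0.000278 to 0.305). By DESeq2 0.367% of all genes passed. The psbM estimate stayed above 0 whichever library was omitted. It was lowest, at 0.82, without wild-type replicate 1 and highest, at 1.31, without wild-type replicate 2.

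psbI, another small photosystem II subunit, had 8.17 and 9.47 CPM in wild type and 15.99 and 13.4 CPM in transgenic seedlings (log2 fold change 0.73, SE 0.153; edgeR adjusted p = 0.257). When single libraries were omitted, the psbI estimate moved between 0.59 (transgenic replicate 1 omitted) and 0.85 (transgenic replicate 2 omitted). psbK, a further small subunit, had a log2 fold change of 0.57 (SE 0.167; edgeR adjusted p = 0.475). These 3 plastid mRNAs had 80 to 754 counts per library, far fewer than most of the nuclear genes.

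The list of 14 light and chloroplast regulators had a median log2 fold change of -0.25, with 9 estimates below and 5 above 0. GLK1 (AT2G20570), a transcription factor that activates antenna and chlorophyll genes, had 110.2 and 77.0 CPM in wild type and 74.7 and 56.7 CPM in transgenic seedlings. The groups did not overlap, and the log2 fold change of GLK1 was -0.51 (SE 0.185; edgeR adjusted p = 0.592). PIF5 (AT3G59060), a phytochrome-interacting factor, had 88.7 and 56.6 CPM in wild type and 57.4 and 38.8 CPM in transgenic seedlings (log2 fold change -0.59, SE 0.232; edgeR adjusted p = 0.605). As in LHCB2, the inner libraries were nearly equal. Of the 14 regulators 8 had wild-type replicate 1 highest and transgenic replicate 2 lowest, against 14.2% of all genes tested. The sizes of the GLK1 and PIF5 estimates depended on single libraries. GLK1 moved between -0.75 (wild-type replicate 2 omitted) and -0.23 (wild-type replicate 1 omitted). PIF5 moved between -0.91 (transgenic replicate 1 omitted) and -0.24 (wild-type replicate 1 omitted). GNC (AT5G56860), a GATA transcription factor that promotes chloroplast genes, had an estimate above 0, with 17.2 and 25.7 CPM in wild type and 25.9 and 33.9 CPM in transgenic seedlings. Its groups did not overlap by a narrow margin (log2 fold change 0.47, SE 0.201; edgeR adjusted p = 0.625). PIF1 (AT2G20180), a repressor of chlorophyll synthesis in the dark, had a log2 fold change of -0.26 (SE 0.106; edgeR adjusted p = 0.606).

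Chlorophyll synthesis genes showed no common lean, with 12 of 24 estimates on each side of 0 and a median of -0.0024. GUN4, a cofactor of magnesium chelatase, and the protochlorophyllide reductases PORB and PORA were at -0.35, -0.25 and -0.63 on the log2 fold change scale (edgeR adjusted p = 0.653, 0.662 and 0.689). PORB had 1621 and 1553 CPM in wild type and 1473 and 1191 CPM in transgenic seedlings, without overlap, while PORA had only 20 to 49 counts per library. The 5 Rubisco small subunit and activase genes, other highly expressed nuclear genes of the leaf, had a median of 0.021 and summed levels of 21499 and 20177 CPM in wild type and 20651 and 21914 CPM in transgenic seedlings. Their groups overlapped in this sum. RBCS2B had a log2 fold change of 0.25 (edgeR adjusted p = 0.625), RCA of 0.049 and RBCS1B of 0.021.

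The 11 electron transport and ATP synthase genes had a median log2 fold change of 0.055, with 7 estimates above 0. PETM, a cytochrome b6f subunit, the leaf ferredoxin FD2 and the Rieske protein PETC had 0.24, 0.32 and 0.13 (edgeR adjusted p = 0.612, 0.631 and 0.762). The 14 genes for antenna delivery, assembly and phosphorylation had a median of 0.058. In this list the assembly factor PSB27 and the LHCII phosphatase TAP38 had 0.22 and 0.20, and CPSRP43, which carries antenna proteins to the thylakoid, had -0.18 (edgeR adjusted p = 0.631, 0.644 and 0.681). The 9 LHC-like and xanthophyll cycle genes had a median of 0.19. LIL3:1 and LIL3:2, relatives of the antenna proteins that serve chlorophyll synthesis, had 0.29 and 0.26, and the light-stress protein ELIP2 had -1.38 on 8 to 30 counts per library (edgeR adjusted p = 0.573, 0.566 and 0.574).

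**Figure D5:**
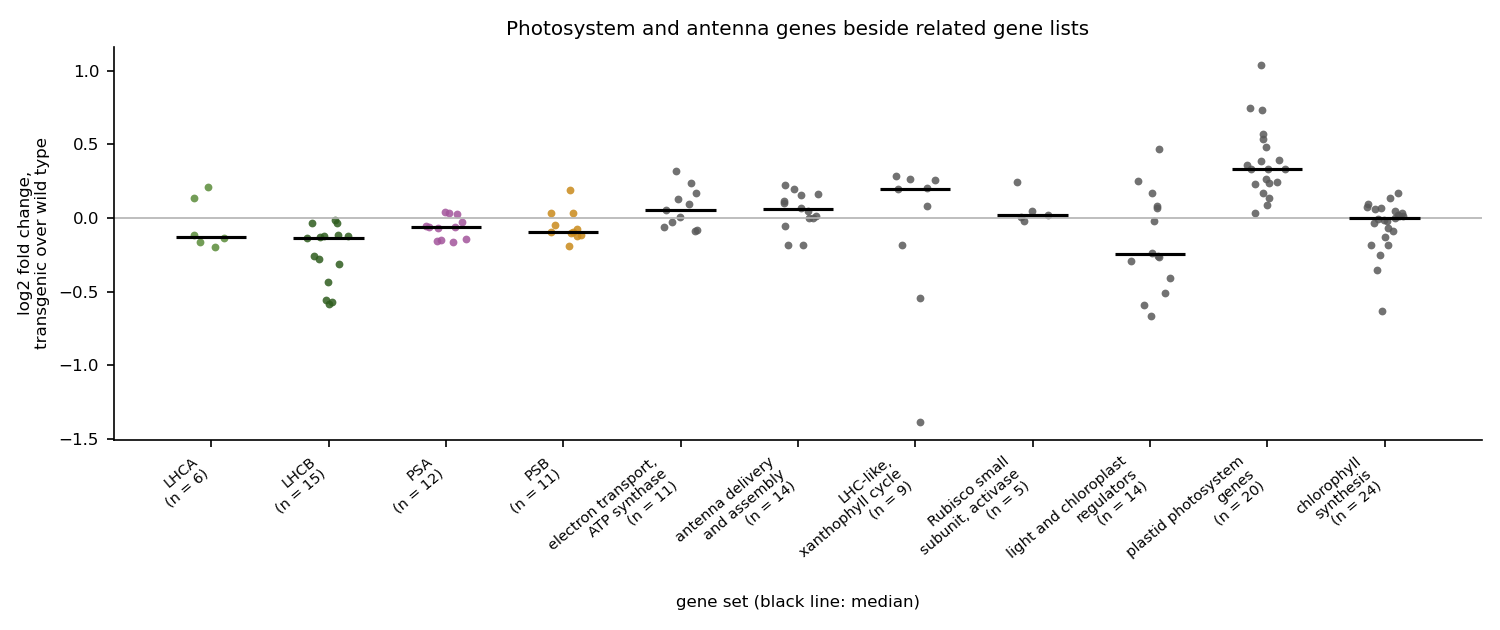
Log2 fold change (transgenic over wild type) of each gene in the 4 subgroups and in 7 related gene lists, with the median of each set as a black line. The LHCA, LHCB, PSA and PSB medians lie between -0.13 and -0.062, the regulators at -0.25 and the plastid photosystem genes highest at 0.33.

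In 16 of the 44 genes the gene model overlaps that of another locus in the count table, and the sources used here do not say whether counting used strand, so such reads cannot be told apart. The overlapping locus had 17.7% as many counts as LHCB2.3, 5.23% as many as LHCB3, 4.57% as many as LHCB4.2, 20.3% as many as PSAE2 and 78.2% as many as PSAH1. LHCB1.1, LHCB2.1 and LHCB2.2 overlapped no other annotated gene.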

How the data were processed

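Per the file headers, the deposited mRNA values were raw read counts per locus, with a locus length in bases (other unit) and RPKM computed by the authors. BWA 0.5.8c, Bowtie, edgeR and build TAIR9 are named in the submitters' processing notes, without roles. Counts were tested with edgeR 4.0.16 in R 4.3.3 (TMM, filterByExpr, glmQLFit, glmQLFTest, no covariate), with Benjamini-Hochberg adjustment over the 20298 genes tested and a threshold of 0.05. The common biological coefficient of variation was 0.103. CPM and RPKM given as levels were computed from counts with TMM factors. The deposited RPKM was only set beside the computed wild-type levels, and the limma fits used RPKM computed from counts. For 84.1% of the 44 genes the deposited length was within 20% of the annotated gene span. This length can thus include introns, and RPKM can understate levels of genes with long introns. A count of 3 corresponds to 0.155 to 0.192 CPM. Replicates differed by more than counting noise (chi-square per degree of freedom 10.31 in wild type and 11.22 in transgenic seedlings). P-values measure the spread between these pools only. Names and overlaps came from RefSeq for TAIR10.1, which held 20420 of the 20701 loci (98.64%) and all 44 genes, and no coordinates are given because the builds differ.

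All 44 genes were to be named, with values in every library for those with an unadjusted p under 0.05 and for the highest of each subgroup, and up to 3 genes of the smallest p per list. LHCB1.2, LHCB3, PSBW, GNC, the root markers and other genes given with library values were added after their values were seen. The members and lists were chosen with earlier results of these data known. Alternatives were DESeq2 1.42.0, limma 3.58.1 on log2(RPKM + 0.5) or log2(RPKM + 0.1), RLE or no factors, no filter, robust fitting, a replicate block and each library left out. A group left with 1 library is assumed to vary like the other. In the mRNA table, 6 further value columns were not used, and small RNA was not analysed here. Figures used Python 3.11.15 and matplotlib 3.10.9.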

Additional observations from a re-analysis of the deposited data

How the results depend on the processing

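Over all genes, 76 passed by DESeq2, 10 by limma with either pseudocount, 31 with robust fitting, 596 with the replicate block and 16 to 411 with 1 library left out, beside 17 by edgeR. Of the 44 genes, 4 passed with the block (LHCB1.1, LHCB2.1, LHCB2.2 and LHCB2.3, edgeR adjusted p = 0.0128, 0.000553, 0.0007 and 0.000496) and 0 to 3 with 1 library left out. Over all alternatives their adjusted p ranged up to 0.999, 1, 1 and 1. With the block 2.94% of all genes passed, and the LHCB2 total passed at -0.57 (edgeR adjusted p = 0.000521). The replicates share only a number: the correlation of same-numbered deviations was 0.228, and no label ties a number to a batch. Among list genes psbM, psbI, GUN4, GLK1 and PIF5 also passed with the block.

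With 1 library left out, medians of log2 fold changes ranged from -0.21 to -0.042 in LHCA, -0.35 to -0.092 in LHCB, -0.15 to -0.00697 in PSA and -0.13 to -0.037 in PSB. They ranged from 0.027 to 0.104 for electron transport, -0.39 to -0.051 for regulators, 0.050 to 0.097 for antenna delivery and 0.046 to 0.22 for LHC-like genes. The LHCB2 total ranged from -0.90 to -0.27, the PSAE total from -0.15 to 0.024 and the PSAH total from -0.11 to 0.071.

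The sign turned in 16 genes, and the cause was not tested. Their log2 fold changes ranged from -0.14 to 0.073 (LHCB1.4), -0.16 to 0.11 (LHCB4.3), -0.12 to 0.043 (LHCB5), -0.32 to 0.070 (LHCB6), -0.35 to 0.095 (LHCB7), -0.18 to 0.040 (PSAE1), -0.017 to 0.072 (PSAF), -0.048 to 0.12 (PSAG), -0.054 to 0.091 (PSAH1), -0.18 to 0.056 (PSAH2), -0.14 to 0.0049 (PSAK), -0.19 to 0.047 (PSAN), -0.13 to 0.035 (PSBQ1), -0.17 to 0.21 (PSBR), -0.021 to 0.12 (RCA) and -0.035 to 0.072 (RBCS1B). No named gene turned sign under the other settings, scaling included. The wild-type RPKM of PSAG was 3485, and 3474 in the deposited RPKM columns.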
